A study of Oryza sativa with 6 samples.

Results

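Expansins are small proteins that plant cells secrete into their walls, where they loosen the contacts between cellulose and the polysaccharides around it without cutting them. The family has alpha-expansins (EXPA), beta-expansins (EXPB) and expansin-like groups (EXLA and EXLB), for which wall-loosening activity has not been shown. Alpha-expansins act on cell extension in acidified walls. Beta-expansins are numerous in grasses and include the group 1 pollen allergens. In rice, expansin transcripts are best known from elongating internodes, growing leaf bases and roots, and several beta-expansins accumulate there after gibberellin treatment or submergence.

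Expansin genes were taken as all genes with a symbol or RefSeq synonym of the form EXPA, EXPB, EXLA or EXLB followed by a number. RefSeq named 49 such genes, and 29 of them, among 17905 genes in all, had a probe set annotated to 1 gene. These were 14 alpha-expansins of 29 named, 11 beta-expansins of 15 and 4 expansin-like genes of 5. The other 20 genes (15 alpha, 4 beta and OsEXLB1) were not analysed here. Each gene was represented by the probe set with the highest mean over the arrays.

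RNA came from flag leaves of the japonica cultivar Zhonghua11. Wild type plants (3 arrays) were set against a line of this cultivar with a T-DNA insertion in OsSLAC7, Os01g0385400 (3 arrays). All plants were untreated and went from a greenhouse to a field. The labels call the arrays biological replicates but do not say whether each was a separate plant, nor the age of the leaf or the number of insertion lines, so the p-values reflect sample-to-sample spread, which may be partly technical.

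No probe set was named for OsSLAC7 in the tables used, so the insertion was not checked here. Pearson correlations between arrays of a group lay between 0.992 and 0.996 across probe sets. The array medians over genes were 7.21 to 7.29 in wild type, 7.40 and 7.42 in mutant replicates 3 and 2, and 7.60 in mutant replicate 1. Over all probe sets the order was different, with medians of 4.68 to 4.72 in wild type and 4.58 to 4.67 in the mutant, lowest in mutant replicate 1. Over all genes 27.3% passed the threshold used throughout, a limma adjusted p under 0.05, with 21.0% higher and 6.32% lower in the mutant, and the median gene was 0.10 higher on the log2 scale. All 6 markers of photosynthetic leaf tissue, among them OsrbcS and rca, lay above 10 on every array. None passed the threshold as fitted, but 2 fell after centring arrays on their gene medians, and 1 rose and 1 fell under an intensity trend. With that centring 3935 of the 17905 genes fell, against 1131 as fitted. In whole leaves, a change in the number of cells of a type and a change in RNA per cell cannot be told apart.

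Of the 29 expansin genes, 14 rose in mutant leaves (48.3%), 2 fell (6.90%) and 13 did not pass. Over all genes 21.0% rose and 6.32% fell, so the share of falls was near that of all genes. A rise of 1 or more on the log2 scale was found in 9 expansin genes, or 31.0%, against 3.02% of all genes. Beta-expansins rose in 8 of 11 cases (72.7%) and none fell. Alpha-expansins were split, with 4 large rises (28.6%), 1 fall (7.14%) and 9 genes that did not pass. Their share of rises was nearer than that of beta-expansins to the 21.0% of all genes. Of the 4 expansin-like genes 2 rose and 1 fell. The median difference was 0.71 for beta-expansins, 0.12 for alpha-expansins and 0.33 for expansin-like genes, so that of the alpha group lay 0.02 above the median of all genes. The groups of arrays did not overlap in 16 expansin genes with the mutant higher and in 2 with it lower, where 32.2% and 13.4% of all genes were separated in these directions (45.6% in either).

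**Figure D1:**
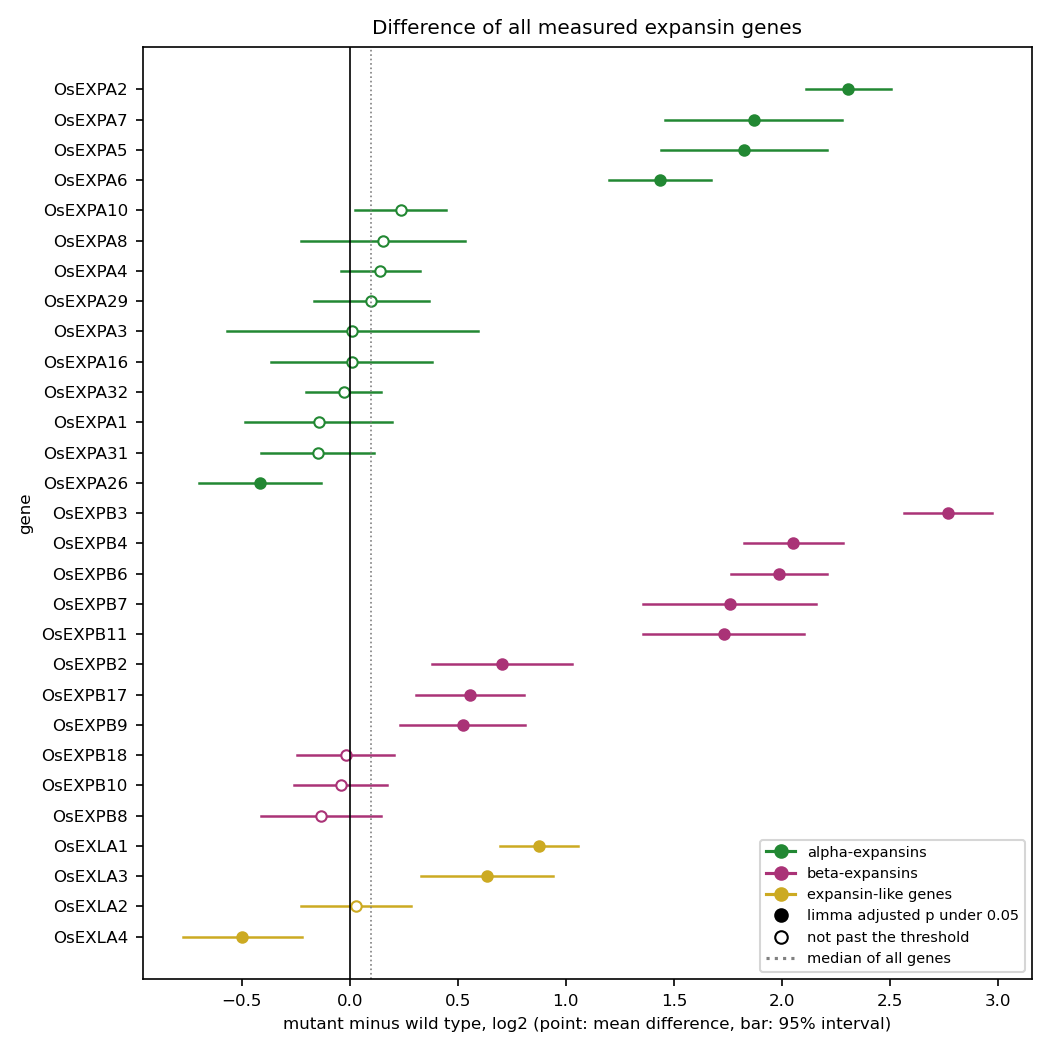
Mutant minus wild type on the log2 scale for each of the 29 expansin genes, with 95% intervals from the limma fit; filled points passed the threshold and the dotted line marks the median of all genes. The 9 largest rises, from 1.44 in OsEXPA6 to 2.77 in OsEXPB3, stand apart from the other genes, which lie at or below 0.88.

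Among beta-expansins, OsEXPB3 differed most. Its log2 values were 9.10, 9.07 and 9.28 on the wild type arrays and 11.90, 12.00 and 11.86 on the mutant arrays. The rise of 2.77 (SE 0.09) equals 6.81-fold, with a limma adjusted p = 3.56e-06. OsEXPB3, OsEXPB4, OsEXPB6 and OsEXPB11 are the genes known from gibberellin-treated and submerged internodes of deepwater rice. OsEXPB4 gave 5.95, 6.18 and 6.10 in wild type and 8.23, 8.17 and 7.98 in mutant leaves, a rise of 2.05 (SE 0.10, adjusted p = 2.62e-05). OsEXPB6 gave 7.50, 7.37 and 7.55 against 9.53, 9.56 and 9.31, a rise of 1.99 (SE 0.10, adjusted p = 2.62e-05). In these genes the arrays of a group lay within 0.25 of each other, and the groups were far apart.

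OsEXPB11 had wild type values of 5.71, 6.19 and 5.89 and mutant values of 7.76, 7.83 and 7.37. Its rise of 1.73 (SE 0.16, adjusted p = 0.000398) was similar in size to that of OsEXPB7, which had 5.25, 5.70 and 5.29 against 7.33, 7.34 and 6.85 and rose by 1.76 (SE 0.17, adjusted p = 0.000498). In both genes mutant replicate 3 was the lowest mutant array, yet it lay above every wild type array.

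The other 3 rising beta-expansins changed less. OsEXPB2, which is known for a part in root growth, had 5.46, 5.91 and 5.82 in wild type and 6.60, 6.26 and 6.44 in mutant leaves and rose by 0.71 (SE 0.14, adjusted p = 0.00971). OsEXPB17 had 5.997, 6.09 and 6.23 against 6.51, 6.83 and 6.64, a rise of 0.56 (SE 0.11, adjusted p = 0.00886). OsEXPB9, of the pollen-type beta-expansins, had 4.98, 4.71 and 5.20 against 5.42, 5.49 and 5.54, a rise of 0.52 (SE 0.12, adjusted p = 0.0198). Their groups did not overlap, but the gap between the nearest arrays was small. OsEXPB9 missed the threshold when wild type replicate 1 was left out (adjusted p = 0.0523), and likewise when mutant replicate 3 was (0.0614). After centring each array on its gene median both OsEXPB9 (0.31, adjusted p = 0.127) and OsEXPB17 (0.34, adjusted p = 0.0849) missed the threshold.

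OsEXPB8, OsEXPB10 and OsEXPB18 did not pass, with differences of -0.13, -0.04 and -0.02. OsEXPB10 belongs to the pollen-type genes like OsEXPB9, and its values ran from 3.22 to 3.36 in wild type and from 3.10 to 3.37 in mutant leaves. The 95% interval of the difference was -0.26 to 0.17 for OsEXPB10, -0.41 to 0.14 for OsEXPB8 and -0.25 to 0.21 for OsEXPB18. Changes in signal of the size seen in the 5 leading beta-expansins lie outside all 3 intervals. The values of OsEXPB18 ran from 2.26 to 2.45 in wild type and from 2.16 to 2.41 in mutant leaves. Such low values, and those of OsEXPB10, may lie at background, where a change in transcript would not show.

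**Figure D2:**
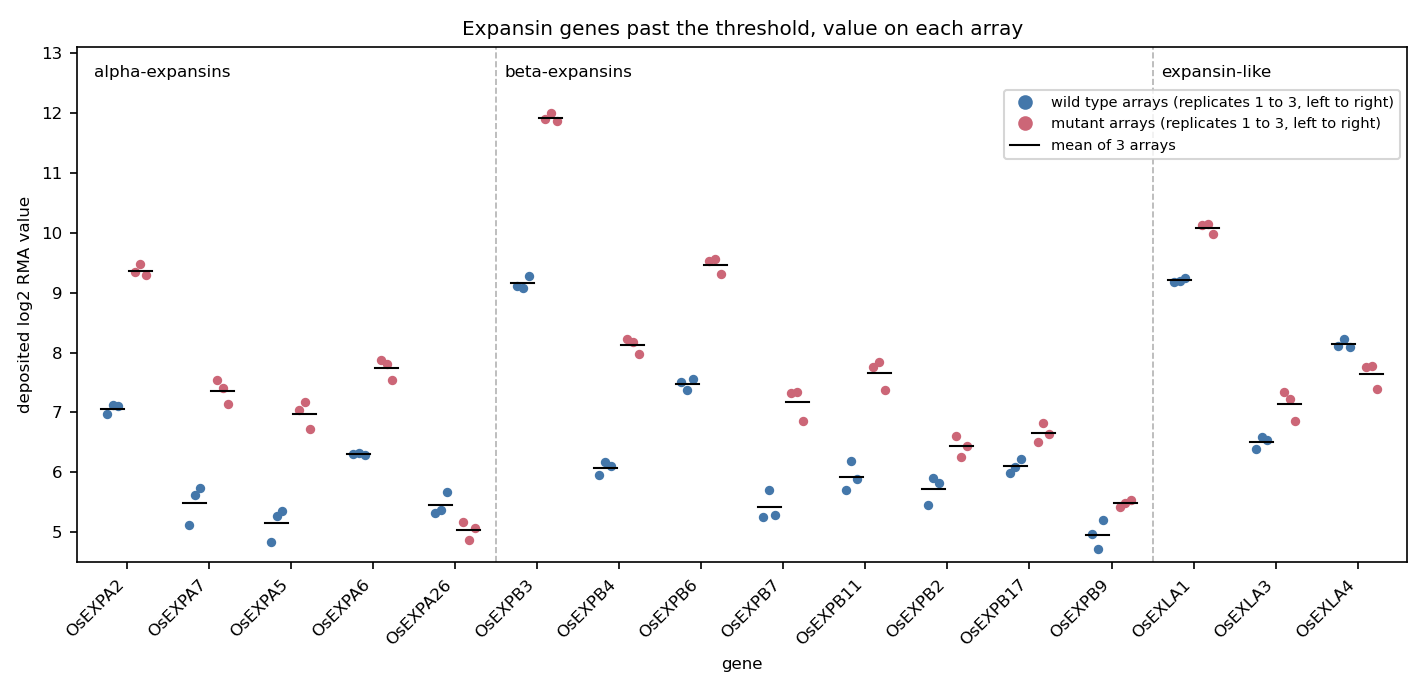
Deposited log2 RMA values on each of the 6 arrays for the 16 expansin genes past the threshold, with the mean of each group as a line. Wild type and mutant points of a gene do not overlap in any of the 16, and OsEXPA26 and OsEXLA4 are the genes with the mutant below wild type.

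Position in the genome links several of these genes. In the RefSeq gene order OsEXPB6, OsEXPB2, OsEXPB3 and OsEXPB4 follow one another with no other protein-coding gene between them, and all 4 were measured and rose. The changes within this run were unequal, since the 95% interval of OsEXPB2 (0.38 to 1.03) lay below those of OsEXPB6 (1.76 to 2.21), OsEXPB4 (1.82 to 2.28) and OsEXPB3 (2.56 to 2.97). OsEXPB8 and OsEXPB7 are also neighbours by this order, and there the interval of OsEXPB7 (1.36 to 2.16) lay far above that of OsEXPB8. Differences between neighbouring genes were not themselves tested. The OsEXPB4 probe set is of the _s_at type, which can bind more than 1 related transcript, so part of its signal may belong to another gene. Of the run of 6 neighbouring alpha-expansins from OsEXPA12 to OsEXPA20 in this order, no gene had a probe set used here.

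Among alpha-expansins the rise was carried by 4 genes. OsEXPA2, one of the first rice expansins described from growing seedlings and internodes, had 6.97, 7.12 and 7.10 in wild type and 9.34, 9.47 and 9.29 in mutant leaves. It rose by 2.31 (SE 0.08), or 4.95-fold, with a limma adjusted p = 7.00e-06. OsEXPA6 had 6.30, 6.32 and 6.29 against 7.87, 7.82 and 7.54, a rise of 1.44 (SE 0.10, adjusted p = 0.000136). In both, the nearest arrays of the groups were more than 1 apart on the log2 scale.

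OsEXPA5 had 4.84, 5.26 and 5.36 in wild type and 7.03, 7.17 and 6.72 in mutant leaves, a rise of 1.82 (SE 0.17, adjusted p = 0.000371). OsEXPA7, reported elsewhere to act in salt tolerance of rice, had 5.12, 5.63 and 5.74 against 7.54, 7.41 and 7.14 and rose by 1.87 (SE 0.18, adjusted p = 0.000436). Wild type replicate 1 was the lowest array in both genes.

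OsEXPA26 was lower in the mutant, with 5.32, 5.37 and 5.67 against 5.17, 4.87 and 5.07. Its fall of 0.42 (SE 0.12, adjusted p = 0.0394) was close to the threshold and was lost when any 1 wild type array, or mutant replicate 2 or 3, was left out, with adjusted p between 0.0503 and 0.123. The other 9 alpha-expansins had differences from -0.15 (OsEXPA31) to 0.24 (OsEXPA10). OsEXPA10, an aluminium-induced gene of root cell elongation, had 7.64, 7.90 and 7.77 against 8.08, 7.94 and 7.99. Its groups did not overlap, but the adjusted p was 0.0912, while the 95% interval of 0.03 to 0.45 leaves out changes like those of OsEXPA2.

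OsEXPA1 and OsEXPA4 were described together with OsEXPA2 from deepwater rice, and neither passed. OsEXPA1 had 6.46, 6.13 and 6.23 in wild type and 6.28, 6.28 and 5.83 in mutant leaves, a difference of -0.14 with a 95% interval of -0.48 to 0.20. OsEXPA4 had values from 2.52 to 2.55 against 2.58 to 2.78, a difference of 0.14 (interval -0.04 to 0.33). OsEXPA8, a gene of root growth, differed by 0.16 with overlapping groups (interval -0.22 to 0.54). OsEXPA29 differed by 0.10, OsEXPA32 by -0.03, OsEXPA16 by 0.01 and OsEXPA3 by 0.01, with OsEXPA3 the least precise (interval -0.57 to 0.59). Detection calls were not used here, so low values such as those of OsEXPA4 may lie at background, where a change in transcript would not show.

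OsEXLA1 had the smallest scatter among the expansin-like genes, with 9.17, 9.20 and 9.24 in wild type and 10.12, 10.14 and 9.98 in mutant leaves. It rose by 0.88 (SE 0.08), or 1.84-fold, with a limma adjusted p = 0.000329. OsEXLA3 had 6.40, 6.59 and 6.54 against 7.35, 7.22 and 6.86 and rose by 0.64 (SE 0.13, adjusted p = 0.0116). OsEXLA4 went the other way and was lower on every mutant array. Its values were 8.10, 8.22 and 8.09 against 7.76, 7.78 and 7.39, a fall of 0.50 (SE 0.12, adjusted p = 0.0200). The adjusted p of OsEXLA4 became 0.0690 when wild type replicate 2 was left out and 0.0524 when replicate 3 was. OsEXLA2 differed by 0.03 with overlapping groups and a 95% interval of -0.23 to 0.28.

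In 3 genes further probe sets could be compared. For OsEXPA7 they disagreed. Beside the brightest one, which rose by 1.87, a second gave means of 4.03 in wild type and 4.33 in mutant leaves, a difference of 0.30 (limma over all probe sets, of which 9.84% passed, adjusted p = 0.0790). The remaining probe set gave 3.93 and 3.53, a difference of -0.40 (adjusted p = 0.125), and the mean of all 3 probe sets rose by 0.59. For OsEXPB17 the second probe set differed by -0.04 (adjusted p = 0.877), and with the mean of both probe sets the gene differed by 0.26 and missed the threshold (adjusted p = 0.0779). The rises of OsEXPA7 and OsEXPB17 thus each rest on 1 probe set that the gene's further probe sets did not match. Every other rising expansin had only 1 probe set, so no such comparison could be made. For OsEXLA2 the probe sets gave 0.03 and -0.06, neither past the threshold.

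**Figure D3:**
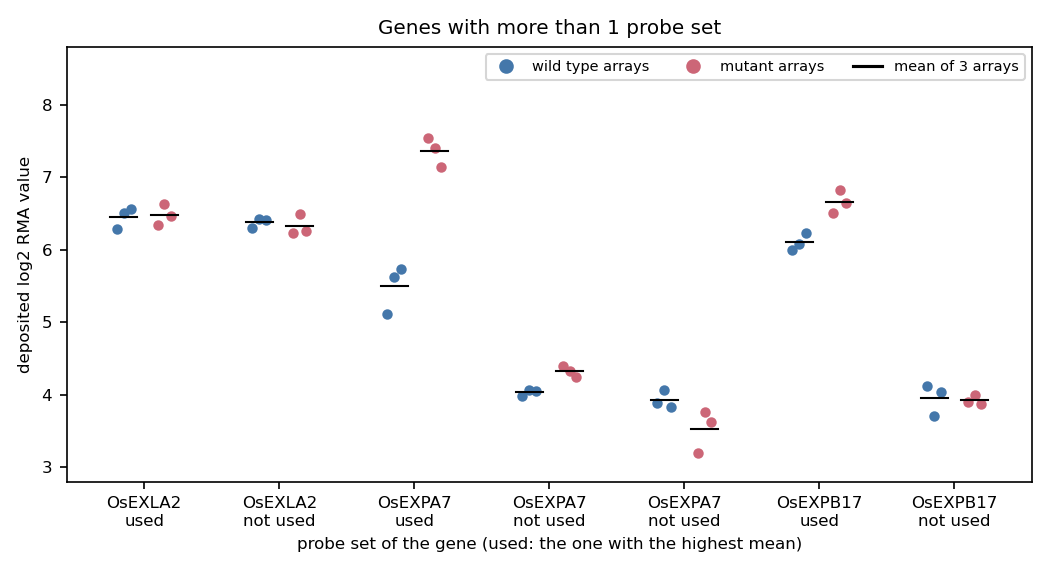
Deposited log2 RMA values of every probe set of OsEXLA2, OsEXPA7 and OsEXPB17, each with 3 wild type and 3 mutant arrays and group means as lines. The probe set used for OsEXPA7 separates the groups by 1.87, while the other probe sets of this gene differ by 0.30 and -0.40.

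Mutant replicate 3 was the lowest mutant array in 11 of the 14 rising genes, and it was the lowest in 52.2% of all genes that rose. Wild type replicate 1 was the lowest wild type array in 10 of the 14, against 35.8% of all rising genes. Mutant replicate 1, the array with the highest gene median, was the lowest mutant array in 2 of them (OsEXPB17 and OsEXPB9). Without mutant replicate 1 the counts were again 14 up and 2 down, and without mutant replicate 3 they were 13 up and 1 down.

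Other genes of wall building and growth were taken by name, and their counts stand against the 21.0% of all genes that rose and 6.32% that fell. After centring on gene medians 1804 of the 17905 genes rose and 3935 fell. The xyloglucan endotransglucosylase OsXTH8, which cuts and rejoins xyloglucan, had 7.09, 7.31 and 7.39 in wild type and 8.36, 8.24 and 7.98 in mutant leaves and rose by 0.93 (SE 0.12, adjusted p = 0.00197). Of 9 cellulose synthases 5 rose and none fell, led by OsCesA1 (0.82), OsCesA5 (0.77) and OsCesA6 (0.65), which serve the primary wall. OsCesA4, OsCesA7 and OsCesA9, the subunits of secondary walls, differed by 0.25, -0.30 and -0.17 and did not pass, and neither did OsCesA2 (-0.096), which is not one of these subunits. The rising cellulose synthases numbered 3 after centring on gene medians, with 1 fall, and also 3 when wild type replicate 1 or 3 was left out.

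Of 20 cellulose-synthase-like genes 9 rose and 1 fell. OsCslA1, of the mannan synthases, rose by 1.85 (adjusted p = 0.000101), and OsCslC9 and OsCslC1, of the group that makes the xyloglucan backbone, rose by 1.24 and 0.52. The list had 4 rises and 3 falls after centring on gene medians, and 5 rises when wild type replicate 2 or 3 was left out. Of 11 endoglucanases of the GLU series, 4 rose and none fell (3 and 1 after centring on gene medians), among them OsGLU13 (1.35), OsGLU2 (0.55) and OsGLU8 (1.66). The 2 pectin methylesterase inhibitors matched by name differed by 0.28 (OsPMEI28) and 0.02 (OsPMEI8) and did not pass. The list medians were 0.37 for cellulose synthases, 0.31 for cellulose-synthase-like genes and 0.24 for endoglucanases, each above the 0.10 of all genes and below the 0.71 of beta-expansins.

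Hormone genes that act on cell extension more often rose than fell as fitted, and only the brassinosteroid list held a fall. Over all genes 21.0% rose and 6.32% fell. Of 8 gibberellin genes 4 rose and none fell, with OsKAO (0.59) and OsGA20ox3 (0.65) of gibberellin synthesis and the DELLA repressor SLR1 (0.39) having the smallest adjusted p. This count was 2 after centring on gene medians, and also 2 when wild type replicate 1 or 3 was left out. Of 7 brassinosteroid genes 2 rose and 1 fell, a share of rises near that of all genes. OsBU1, a helix-loop-helix protein of lamina bending that brassinosteroid induces, had 5.20, 5.08 and 4.99 in wild type and 6.80, 6.84 and 6.59 in mutant leaves and rose by 1.66 (SE 0.10, adjusted p = 6.39e-05). The receptor gene OsBRI1 rose by 0.93 (adjusted p = 0.000736), while OsDWARF, a brassinosteroid synthesis enzyme, fell by 0.61 (adjusted p = 0.00527). Of 26 Aux/IAA repressor genes of auxin response 13 rose and none fell (9 and 3 after centring on gene medians, and 2 falls when mutant replicate 3 was left out), and those with the smallest adjusted p were IAA15 (0.93), IAA30 (1.66) and IAA21 (0.80).

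Some markers of other tissue were also higher in the mutant. As fitted, 21.0% of all genes rose and 6.32% fell. After centring on gene medians 1804 of the 17905 genes rose and 3935 fell. When arrays were shifted by their median deviation, 2704 rose and 2167 fell. Of 15 panicle and flower organ genes 9 rose and none fell (7 and 2 after centring on gene medians, 7 and 1 when arrays were shifted by their median deviation), led by OsMADS7 (1.71) and OsMADS8 (1.57), and their summed linear signal was 7920 to 8149 in wild type and 8297 to 8389 in mutant leaves. Most of this sum came from OsMADS14, the gene with the synonyms MADS2 and MADS18, and OsMADS15. Their wild type means were 12.08, 11.05 and 9.65, and none of them passed. The sum therefore says little about the genes that rose. OsMADS14 (-0.096) and OsMADS15 (-0.16) were lower on every mutant array. Of 8 dividing-cell markers 5 rose, led by the mitotic cyclins CycB2;2 (1.37) and CycB1;1 LOC4327547 (1.34). CycB2;1 (0.49), OsMCM6 (0.09) and another gene named CYCB1;1, LOC4326914 (-0.10), did not pass. The sums of this list were 319 to 359 against 447 to 557, and centring on gene medians gave 4 rises and 1 fall. Most of this sum came from OsPCNA, with a wild type mean of 7.80 and a rise of 0.36, so it says little about the cyclins. Of 6 anther and pollen markers OsC4 (1.30) and CYP703A3 (0.60) rose and the other 4 did not pass (2 rises and 2 falls after centring on gene medians), with sums of 61.4 to 67.6 against 78.3 to 90.6. CYP703A3 had 2.24 to 2.60 in wild type and 2.91 to 3.23 in mutant leaves, low values that may lie at or near background. OsC4 had 3.12 to 4.09 against 4.78 to 5.21. The list median of 0.12 lay near the 0.10 of all genes, and OsbHLH141 (-0.19) and RTS (-0.16) were lower on every mutant array. RMA gives no value of 0, so the absence of a marker cannot be read from these data. The part of such tissue in the expansin values was not tested.

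**Figure D4:**
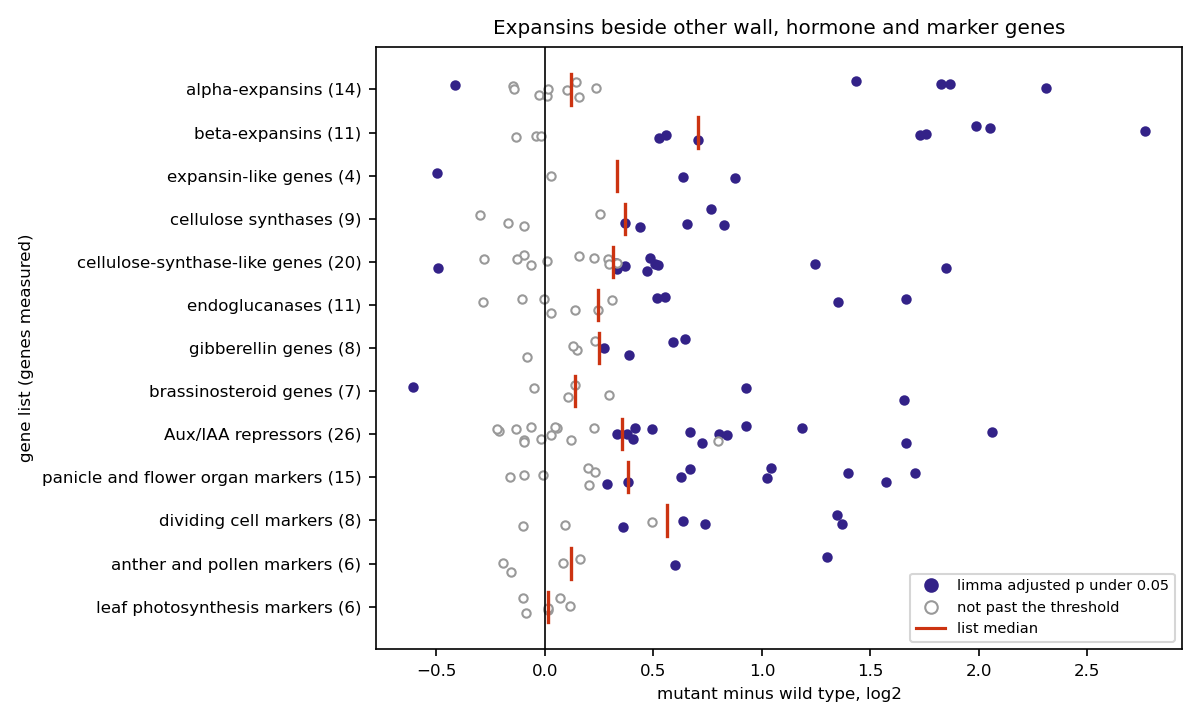
Mutant minus wild type on the log2 scale for the genes of each list, with filled points past the threshold, the list median as a red bar and the number of genes measured in brackets. Beta-expansins have a median of 0.71, and the 6 leaf photosynthesis markers lie close to 0.

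Under other ways of scaling and fitting, or with 1 array left out, OsEXPB3 ranged from 2.55 to 2.83 and OsEXPA2 from 2.09 to 2.36. OsEXPA7 ranged from 0.59, as the mean of its probe sets, to 1.99, without wild type replicate 3. Of the 16 expansin genes past the threshold, 11 had an adjusted p past the threshold under every setting in which they were refitted, and these were OsEXPA2, OsEXPA5, OsEXPA6, OsEXPA7, OsEXPB2, OsEXPB3, OsEXPB4, OsEXPB6, OsEXPB7, OsEXPB11 and OsEXLA1. Of these, OsEXPB2 and OsEXLA1 did not reach a change of 1. Centring each array on its gene median, which moved the median of all genes from 0.10 to -0.12, gave an alpha-expansin median of -0.09 and a beta-expansin median of 0.49.

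**Figure D5:**
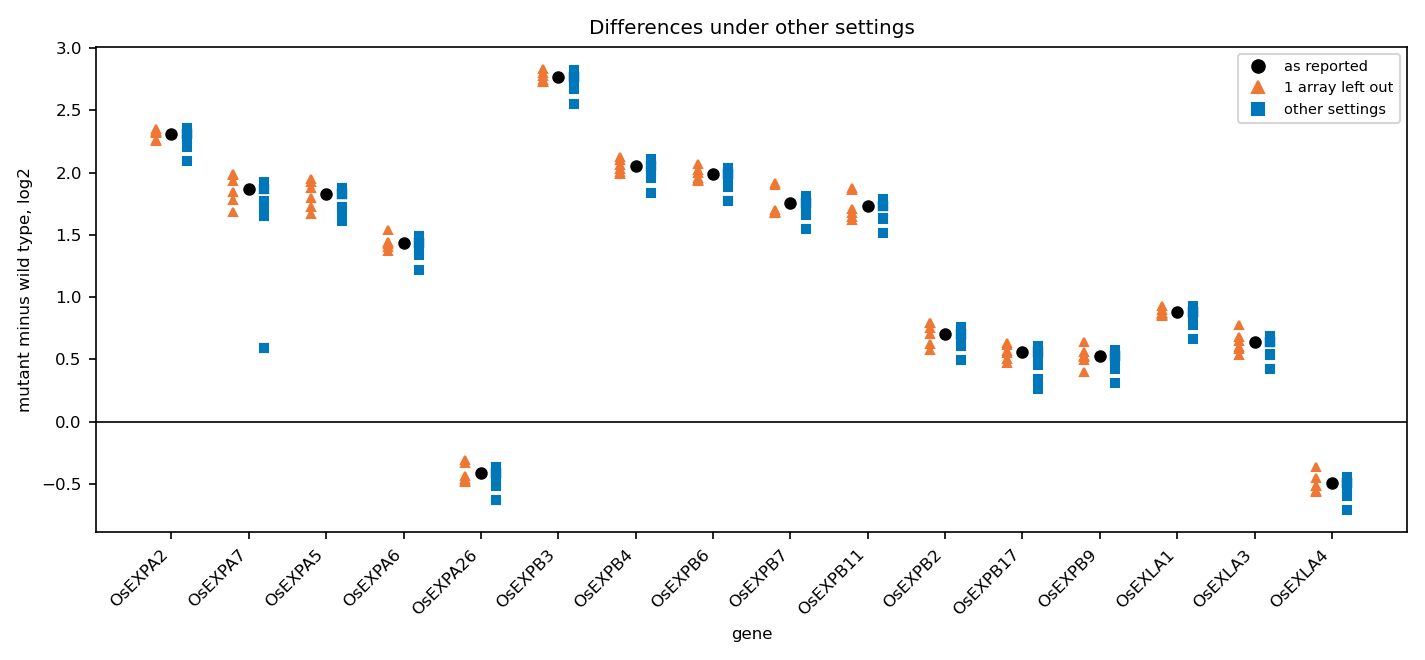
Mutant minus wild type on the log2 scale for the 16 expansin genes past the threshold, as reported (black), with 1 array left out (orange) and under the other settings (blue). None of the 16 changes direction, and the low point of OsEXPA7 at 0.59 is the mean of its 3 probe sets.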

How the data were processed

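Flag leaf RNA of 3 wild type and 3 mutant samples was hybridised to Affymetrix Rice Genome Arrays, 1 per sample. Values were used as deposited, on a log2 scale with 1 value per probe set. The submitters' processing notes name RMA and affy, whose versions are not given in the sources used here. As a method, RMA equalises the distribution of intensities between arrays, so differences in total RNA are removed. The log2 scale was read from the values (1.65 to 14.5), and scanner files were not used here. Depth does not apply to arrays, whose number limits the precision.

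After 123 AFFX controls were left out, 57258 probe sets remained, of which 22436 had 1 gene, 95 several and 34727 none in the platform annotation. All 17905 genes matched the RefSeq table of ASM3414082v1 by Entrez identifier. It was used for names and gene order, with no coordinates, since the build behind the array is not given. No sequences were used.

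The mutant was compared with wild type by two-sided moderated tests of limma 3.58.1 (R 4.3.3), unblocked, with Benjamini-Hochberg adjustment over all genes and a threshold of 0.05. The fit was also tested on simulated data. For a single gene, permuting 3 against 3 arrays exactly gives no p below 0.1. The name rule took every measured expansin and up to 3 genes with the smallest adjusted p of each other wall or hormone list. Members and lists were chosen with earlier results of these data known. Name patterns for proton pumps and fasciclin-like proteins matched no gene of that kind and were left out. Marker genes, OsCesA2 and the secondary wall cellulose synthases were named after their values were seen. The gibberellin list includes a gene with the synonyms GID2 and GF14E, and the panicle list 1 with the synonyms MADS2 and MADS18. Tables and figures were made with pandas 2.3.3 and matplotlib 3.10.9 in Python 3.11.15.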

Additional observations from a re-analysis of the deposited data

How the results depend on the processing

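Counts were recomputed under 18 settings and single expansin genes under 15 to 17, since some settings leave a gene out and the one on the size of change acts on counts. Of 469 values for single expansin genes 419 kept direction and side of the threshold, 20 lost the call, 1 gained it and 29 changed sign, none of these last in a gene past the threshold; where a call was lost or gained, the cause was not tested. The count of rising expansins was 14 as reported, 13 or 14 with 1 array left out and 12 after centring on gene medians. Of the 17905 genes, 3752 rose as reported and 1804 after this centring. Restricted to genes at or above the median level, which leaves 6 expansins, 5 rose and 1 fell, with 2 alpha, 2 beta and 1 expansin-like rising, 0 alpha falling and OsEXPA10 newly past the threshold (adjusted p = 0.0387). Of all 8953 genes tested in this setting, 2634 rose and 1124 fell. With a change of at least 1 required, 9 rose and 0 fell, of which 5 were beta, and 0 expansin-like genes rose or fell. Of the 17905 genes, 540 rose and 53 fell by this rule. At an adjusted p under 0.01, 1 expansin-like gene rose and 0 expansins fell in any group, where 1698 of all genes rose and 423 fell. Falls numbered 1 (0 alpha) after centring on probe-set medians, under an intensity trend, and when p was adjusted over all probe sets. Over all genes these settings gave 641, 1466 and 620 falls. With 1 array left out, falls were 0 to 2 for all expansins, 0 to 1 for alpha-expansins and 0 to 1 for expansin-like genes. Over all genes 2128 to 3639 rose and 572 to 1024 fell in these fits.

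Genes near 0 changed sign without passing. After centring on probe-set medians OsEXPA32 was 0.025, OsEXPB10 0.013 and OsEXPB18 0.035. After centring on gene medians OsEXPA8 was -0.059, OsEXPA3 -0.20, OsEXPA4 -0.073, OsEXPA16 -0.21, OsEXPA29 -0.11 and OsEXLA2 -0.19. Shifting arrays by their median deviation gave OsEXPA3 -0.088, OsEXPA16 -0.091 and OsEXLA2 -0.072. With array weights OsEXPA16 was -0.12 and OsEXLA2 -0.021. OsEXLA2 was -0.014 as the mean of its probe sets and -0.056 without those ending in _x_at or _s_at. With 1 array left out OsEXPA16 ran from -0.12 to 0.19, OsEXLA2 from -0.057 to 0.10, OsEXPA8 from -0.027 to 0.29, OsEXPA3 from -0.25 to 0.15, OsEXPB10 from -0.11 to 0.020, OsEXPB18 from -0.067 to 0.056 and OsEXPA1 from -0.22 to 0.0047.

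The labels do not say whether the replicate numbers pair the samples. Deviations from the group means correlated at 0.12, 0.12 and -0.02 between arrays of the same number. Not every array correlated best with its own number, but deviations from means of 3 arrays cannot show whether samples were paired. With a replicate block 14 expansins rose and 2 fell, as without it. Over all genes rises and falls numbered 3752 and 1131 as reported, 1804 and 3935 after centring on gene medians, 2704 and 2167 when arrays were shifted by their median deviation, 2477 and 620 with p adjusted over all probe sets, 1698 and 423 at an adjusted p under 0.01, and 2128 and 572 without wild type replicate 3. The other lists were rerun under the same settings, chosen after seeing the data, and 0 to 2 leaf photosynthesis markers fell across them. Low signal limits what can be said of some expansins that did not pass, such as OsEXPA4, OsEXPB10 and OsEXPB18.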
